A study of Mus musculus with 12 samples.

Results

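Phosphoinositide 3-kinases of class I were followed through the differentiation of cultured B cells into plasmablasts. The genes described are the catalytic subunits Pik3cg, Pik3cd, Pik3ca and Pik3cb, the regulatory subunits Pik3r1, Pik3r2, Pik3r5 and Pik3r6, and Inpp5d, which encodes the phosphatase SHIP1. They were found by symbol, 9 of the 24325 genes listed in each library, and all 9 passed the filter on low values. Pik3cb passed it only through the populations in which it was higher. Pik3cg was chosen by its measured rise in FPKM from wild-type activated B cells to wild-type plasmablasts and the other 8 for their role beside it, so wild-type steps are described here without a test and the tests rest on the Mzb1-deficient libraries.

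The cells came from the spleens of C57BL/6 mice of the genotypes Mzb1 +/+ Prdm1 +/gfp (wt) and Mzb1 -/- Prdm1 +/gfp (ko). Every animal, control or not, thus carried 1 Prdm1 allele with a green fluorescent protein reporter for the transcription factor Blimp1; ages are not given in the labels. B220-enriched cells were kept for 4 days in 25 µg/ml lipopolysaccharide (LPS) and sorted into activated B cells (ActB, negative for CD138 and the reporter), pre-plasmablasts (PrePB, reporter-positive and CD138-negative) and plasmablasts (PB, positive for both). Each of the 6 groups holds 2 libraries, 12 in all, and nothing in the labels says whether replicates came from separate animals, so p-values measure the spread between these libraries.

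A class I kinase adds a phosphate to the membrane lipid PIP2 and makes PIP3, which recruits Akt, Btk and other proteins with PIP3-binding domains. Class IA enzymes pair a catalytic subunit with a p85-type regulatory subunit and act below antigen receptors, Toll-like receptors and cytokine receptors. The class IB enzyme pairs the catalytic subunit made by Pik3cg with the adaptor made by Pik3r5 or Pik3r6, and is switched on by G protein βγ subunits and Ras below chemokine receptors. Pik3cd is known as the main catalytic subunit of B cell receptor signalling, and SHIP1 removes the 5-phosphate of PIP3.

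Values are FPKM, in which fragment numbers are divided by the length of the transcript and by the size of the library, so levels can be set side by side between genes. Total FPKM ran from 418966 to 581262 per library, and read depth is not known because the files hold no counts. The reporter gene Prdm1 ran from 19.2 to 25.4 FPKM in the 4 ActB libraries and from 218 to 324 FPKM in the other 8, and Sdc1, which encodes CD138, ran from 66.5 to 98.4 FPKM in PB and no higher than 5.24 FPKM elsewhere. Mzb1 was lower in ko than in wt libraries of each population (272.5 and 289 against 845 and 1016 FPKM in ActB, 1008 and 926 against 15434 and 17359 FPKM in PB), and the files do not show which exons these reads cover. Xist was at 33.3 to 81.4 FPKM in wt replicate 1 of all 3 populations and no higher than 0.389 FPKM in the other 9 libraries, so sex differs between the wt replicates. Values near 0 also sort the libraries into a pattern A of 8 (all wt, and replicate 1 of ko ActB and ko PrePB) and a pattern B of 4 (the other ko libraries), which in PB cannot be told apart from genotype.

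Pik3cg encodes the class IB catalytic subunit p110γ and showed the widest range of levels among the 9 genes. In wt libraries it was at 1.98 and 2.06 FPKM in ActB, 91.7 and 109 FPKM in PrePB, and 188 and 190.4 FPKM in PB. In ko libraries it was at 1.19 and 2.16 FPKM in ActB, 58.2 and 64.3 FPKM in PrePB, and 147 and 161 FPKM in PB. The order of the group means ran from ko ActB and wt ActB, whose libraries overlapped, through ko PrePB, wt PrePB and ko PB to wt PB, with no overlap between any later neighbours.

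In ko cells the rise of Pik3cg passed the test at each step. From ActB to PrePB the mean went from 1.67 ± 0.687 to 61.2 ± 4.37 FPKM (SD, n = 2 each), a ratio of 36.6. The limma log2 change on the FPKM + 1 scale, which understates changes of low genes, was 4.56 (SE 0.15, Benjamini-Hochberg adjusted p = 5.78e-09). From PrePB to PB the mean rose further to 154 ± 10.1 FPKM (SD), a log2 change of 1.32 (SE 0.15, limma adjusted p = 0.000743). Over the whole course the ratio of means was 92.2 and the log2 change 5.88 (SE 0.15, limma adjusted p = 6.61e-10). These calls held in all 14, 13 and 13 other settings tried for the 3 comparisons. Most of the log2 rise thus lay at the step in which the Blimp1 reporter came on, and the smaller part at the step in which CD138 appeared. In wt cells, given as a description, the log2 changes were 5.06, 0.91 and 5.97 for the same steps (SE 0.15 each).

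The populations also differed in markers of other cells, whose part in the rise of Pik3cg was not tested. The summed FPKM of 10 T cell markers was 2.15 to 2.49 in ActB, 18.5 to 20.3 in PrePB and 31.7 to 47.0 in PB. Cd28, also known in plasma cells, made up 24.8 to 36.3 FPKM of the PB sums, while Cd3e and Cd8a did not exceed 0.138 and 0.0256 FPKM and Trat1 was listed at 0 in all 12 libraries. Cd3g, a chain of the T cell receptor complex, ran from 0.207 to 0.808 FPKM in ActB and from 3.19 to 8.17 FPKM in PB. Its log2 change from ko ActB to ko PB was 2.30. No p is given because Cd3g passed the filter on low values only through PrePB and PB. Lat, an adaptor of that receptor, was no higher than 0.903 FPKM in ActB, between 0.982 and 3.87 FPKM in PrePB and between 0.656 and 1.56 FPKM in PB. The sum of 9 dendritic cell markers went from between 112 and 129.7 FPKM in ActB to between 378 and 429 FPKM in PB, mostly Bst2 (62.3 to 79.3 and 337 to 389.9 FPKM), with Clec9a and Cd209a listed at 0 throughout. Flt3 of this list went the other way, from between 16.4 and 22.2 FPKM in ActB to between 6.90 and 9.04 FPKM in PB. Itgax was also lower in PB, at 0.115 to 0.676 FPKM against 0.688 to 1.72 FPKM in ActB. Of 10 macrophage and monocyte markers the sum went from between 19.8 and 48.3 FPKM in ActB to between 2.10 and 7.40 FPKM in PB. This fall lay in Adgre1 (7.84 to 28.2 FPKM in ActB, at most 0.8445 FPKM in PB) and Ms4a7 (11.95 to 18.0 and 1.08 to 3.19 FPKM). Lyz2 did not fall in ko, at 1.725 and 0.205 FPKM in ActB against 1.40 and 3.80 FPKM in PB. In wt Lyz2 was at 0 and 1.43 against 0.316 and 0 FPKM. C1qb went from at most 0.0859 FPKM in ActB to between 0.122 and 0.6785 FPKM in PB, and C1qa and C1qc were listed at 0 throughout. Natural killer markers summed to 0.305 to 7.56 FPKM, largely through Eomes in PB with Ncr1 listed at 0 in every library, and 9 granulocyte and mast cell markers to at most 0.437 FPKM. In sorted bulk samples, fewer cells of a type and less RNA per cell cannot be told apart.

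**Figure D1:**
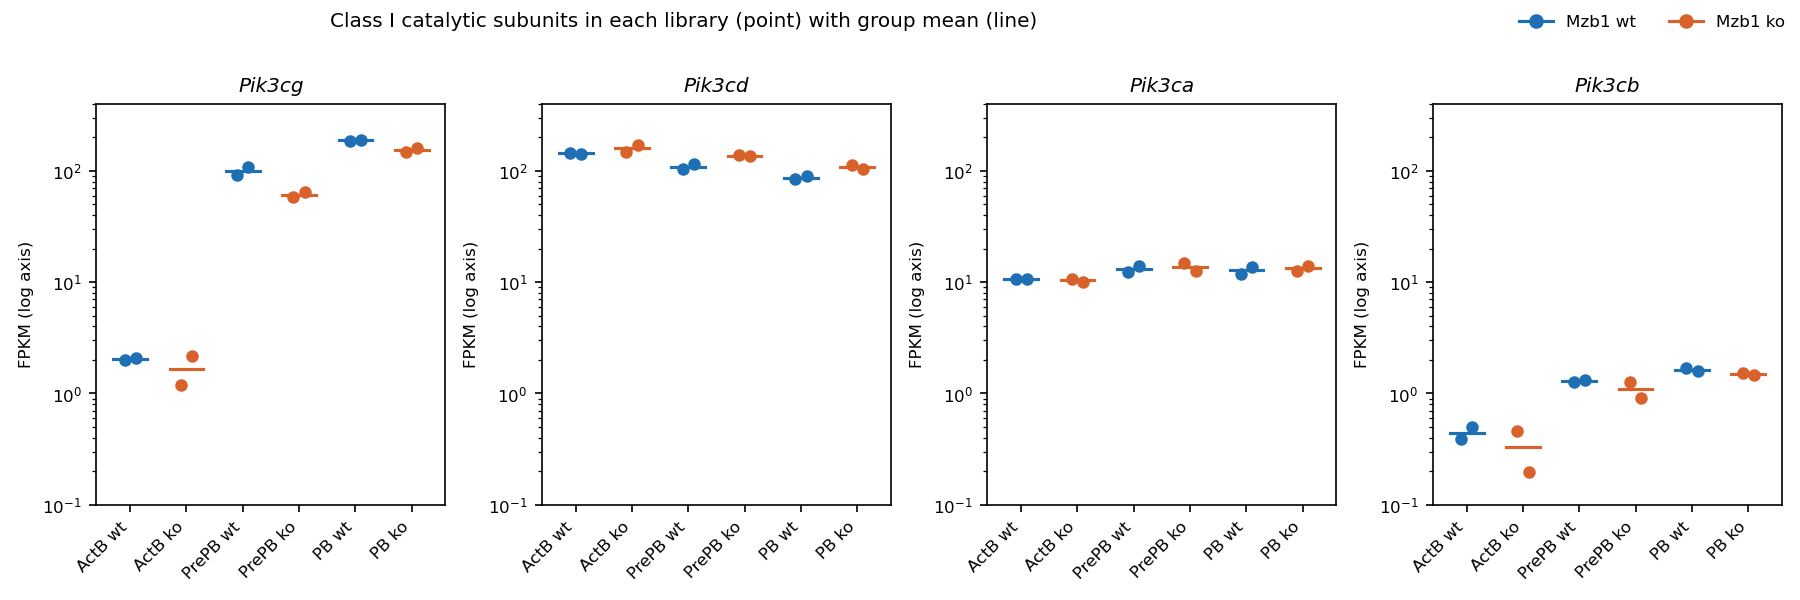
FPKM of the 4 class I catalytic subunits in each library (points; log axis) with the group mean (line), wt in blue and ko in orange, n = 2 per group. Pik3cg climbs from about 2 FPKM in ActB to between 147 and 190.4 FPKM in PB, while Pik3cd stays between 83.8 and 170.4 FPKM and moves the other way.

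Pik3cd encodes p110δ, the leukocyte-enriched class IA catalytic subunit, and was the most abundant catalytic subunit of activated B cells. It was at 146 and 143 FPKM in wt ActB, 104 and 114 FPKM in wt PrePB, and 83.8 and 89.5 FPKM in wt PB. The ko libraries held 149 and 170.4 FPKM in ActB, 139 and 136 FPKM in PrePB, and 113 and 104 FPKM in PB. Within each genotype the level stepped down from population to population without overlap. In ko cells the fall over the whole course was 0.56 on the log2 scale (log2 change -0.56, SE 0.09, limma adjusted p = 0.000279), from a mean of 159.8 FPKM to 108 FPKM. The step from PrePB to PB passed the test (log2 change -0.34, limma adjusted p = 0.0347) but did not without any 1 of the 4 libraries compared (adjusted p from 0.0563 to 0.205). The step from ActB to PrePB was -0.21 (limma adjusted p = 0.064), and the wt changes were -0.40, -0.33 and -0.73.

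Pik3ca and Pik3cb, which encode the widely expressed class IA subunits p110α and p110β, were the lesser catalytic subunits in plasmablasts. Pik3ca lay between 10.1 and 10.7 FPKM in the 4 ActB libraries and between 11.9 and 14.9 FPKM in the other 8, so that ActB did not overlap with the later populations. In ko cells its log2 change was 0.37 from ActB to PrePB (limma adjusted p = 0.0163) and 0.33 from ActB to PB (limma adjusted p = 0.0228). Neither call survived rescaling of the libraries to equal totals (adjusted p up to 0.695) or leaving out ko ActB replicate 2. The first was also lost without ko PrePB replicate 1 or with pattern A libraries alone, and the other without ko PB replicate 2.

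Pik3cb was the lowest of the 9 genes. Its ko libraries were at 0.463 and 0.198 FPKM in ActB, 1.28 and 0.904 FPKM in PrePB, and 1.52 and 1.47 FPKM in PB, without overlap between populations. Its log2 changes in ko cells were 0.65 from ActB to PrePB and 0.91 from ActB to PB (SE 0.16 each), given as a description with no p because it passed the filter on low values only through PrePB and PB. The wt libraries, at 0.386 and 0.495, 1.28 and 1.32, and 1.70 and 1.58 FPKM in the same order, showed the same order of populations. At these levels the pseudocount sets much of the log2 change, which over the whole course in ko cells was 1.96 with a pseudocount of 0.1.

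Library scaling cancels in a ratio taken within 1 library, so the 4 catalytic subunits were also set against their summed FPKM. In ActB, Pik3cd made up 91.8 and 91.6% of the sum in wt and 92.4 and 93.2% in ko, and Pik3cg 1.25 and 1.33% in wt and 0.735 and 1.18% in ko. In PrePB the Pik3cg share was 43.8 and 45.6% in wt and 27.3 and 30.1% in ko. In PB it was 65.8 and 64.5% in wt and 53.7 and 57.5% in ko, which made Pik3cg the leading catalytic transcript of plasmablasts in all 4 libraries. Pik3cd fell to 29.4 and 30.3% in wt PB and to 41.2 and 37.0% in ko PB. The summed FPKM itself went from 157 through 224 to 290.1 in wt and from 172 through 213 to 277 in ko (means of 2 libraries), so the rise of Pik3cg exceeded the fall of Pik3cd.

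**Figure D2:**
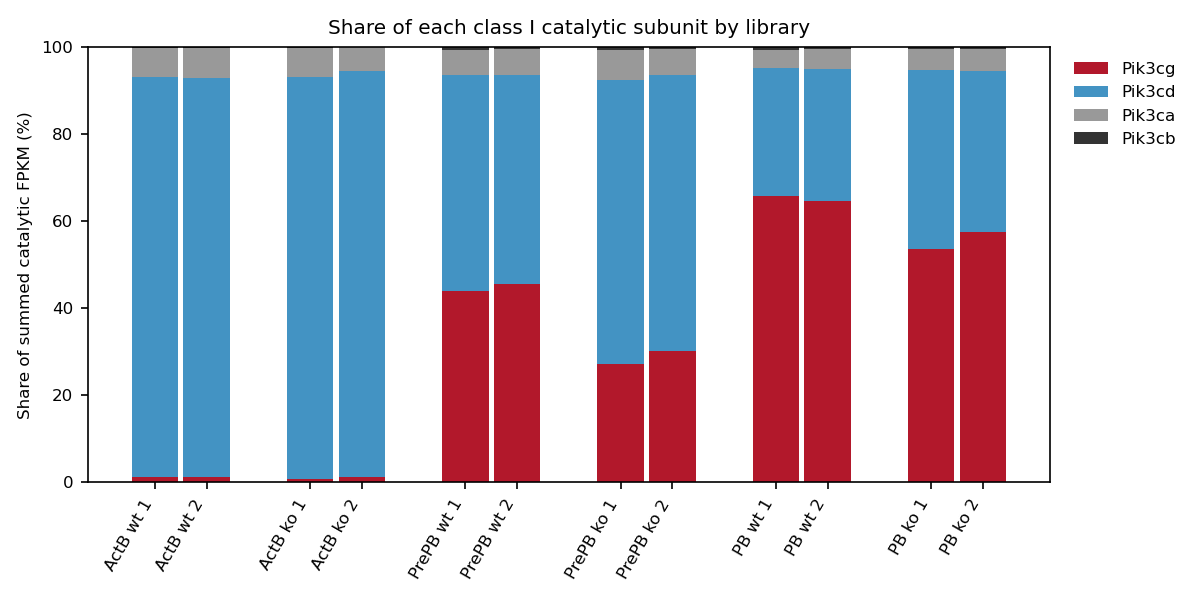
Share of each class I catalytic subunit in their summed FPKM (percent, 0 to 100) for each of the 12 libraries, labelled by population, genotype and replicate. Pik3cd fills over 90% of every ActB bar, and Pik3cg fills between 53.7 and 65.8% of every PB bar, with ko PrePB bars at 27.3 and 30.1% below both wt PrePB bars.

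The adaptors of the class IB enzyme stayed within a narrow range beside their catalytic partner. Pik3r5 encodes p101, which couples p110γ to G protein βγ subunits, and was highest in PrePB. It was at 7.69 and 7.01 FPKM in wt ActB, 11.2 and 10.8 FPKM in wt PrePB, and 8.22 and 9.02 FPKM in wt PB. In ko libraries it was at 4.50 and 8.57 FPKM in ActB, 12.4 and 14.3 FPKM in PrePB, and 9.07 and 10.2 FPKM in PB, with a wide gap between the ActB replicates. PrePB did not overlap with either other population in either genotype.

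In ko cells Pik3r5 rose from ActB to PrePB by a log2 change of 0.98 (SE 0.20, limma adjusted p = 0.00203), a call kept in all 14 other settings. Its size rested on the ActB replicates, at 0.59 without ko ActB replicate 1 and 1.38 without ko ActB replicate 2. The change from PrePB to PB was -0.44 (limma adjusted p = 0.213), called only with a term for the fragment pattern (adjusted p = 0.0293). The change over the whole course was called (log2 change 0.55, limma adjusted p = 0.0374) but in only 5 of 13 other settings. It was 0.15 (adjusted p = 0.392) without ko ActB replicate 1, the library at 4.50 FPKM, and was also lost without either ko PB replicate. In wt cells the changes were 0.53, -0.33 and 0.20.

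Pik3r6 encodes p84, the other adaptor of p110γ, and had its lowest means in PB. It ran from 7.35 to 10.8 FPKM in the 8 ActB and PrePB libraries, and was at 4.07 and 6.13 FPKM in wt PB and 8.24 and 6.53 FPKM in ko PB. No ko step of Pik3r6 passed the test: the log2 changes were 0.12, -0.42 and -0.30 (limma adjusted p = 0.61, 0.173 and 0.165) against -0.27, -0.61 and -0.88 in wt. The summed FPKM of both adaptors went from 15.9 ± 4.21 in ko ActB to 23.6 ± 0.828 in ko PrePB and 17.0 ± 0.431 in ko PB (SD, n = 2 each). Pik3cg per unit of adaptor FPKM therefore went from 0.0920 and 0.115 in ko ActB to 2.53 and 2.66 in ko PrePB and 8.50 and 9.67 in ko PB. In wt it was 0.116 in both ActB libraries, 4.93 and 5.44 in PrePB, and 15.3 and 12.6 in PB. FPKM of transcripts do not give the ratio of the proteins.

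Pik3r1 and Pik3r2 encode the class IA regulatory subunits p85α and p85β, which stabilize the catalytic subunits and bring them to phosphorylated receptors. Pik3r1 was at 10.7 and 10.1 FPKM in wt ActB, 7.20 and 7.76 FPKM in wt PrePB, and 6.74 and 6.69 FPKM in wt PB. In ko it was at 10.3 ± 0.952 FPKM in ActB (SD, n = 2), at 8.14 and 8.54 FPKM in PrePB, and at 8.28 and 8.73 FPKM in PB, so both ActB libraries were above the later populations in both genotypes. In ko cells its log2 change was -0.28 from ActB to PrePB (limma adjusted p = 0.0371) and -0.25 from ActB to PB (limma adjusted p = 0.0477). These calls held in 8 of 14 and 8 of 13 other settings. The first was lost without ko ActB replicate 2 or either ko PrePB replicate, and the other without ko ActB replicate 2 or either ko PB replicate. Pik3r2, the more abundant of the pair, ran from 14.8 to 24.2 FPKM over all libraries. Its ko steps were -0.31, 0.29 and -0.02 (limma adjusted p = 0.0582, 0.176 and 0.916), and its wt steps -0.40, 0.26 and -0.14. It made up between 63.7 and 74.9% of the FPKM of both genes in every library.

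Inpp5d encodes SHIP1, which turns PIP3 into a product with the 5-phosphate removed and limits B cell receptor signalling. It was at 70.5 FPKM in both wt ActB libraries, 53.0 and 65.7 FPKM in wt PrePB, and 47.6 and 51.9 FPKM in wt PB. In ko it was at 64.9 and 83.3, 59.1 and 74.2, and 53.0 and 67.0 FPKM, with overlap between all 3 populations. No ko step passed the test, with log2 changes of -0.15, -0.15 and -0.30 (limma adjusted p = 0.457, 0.618 and 0.127), beside -0.25, -0.24 and -0.50 in wt. Libraries of the same ko replicate number stepped down in order (64.9, 59.1 and 53.0, and 83.3, 74.2 and 67.0 FPKM), though the labels do not say that a number marks a shared source. The change over the whole course was called in 5 of 13 other settings, among them the fit with a replicate block.

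**Figure D3:**
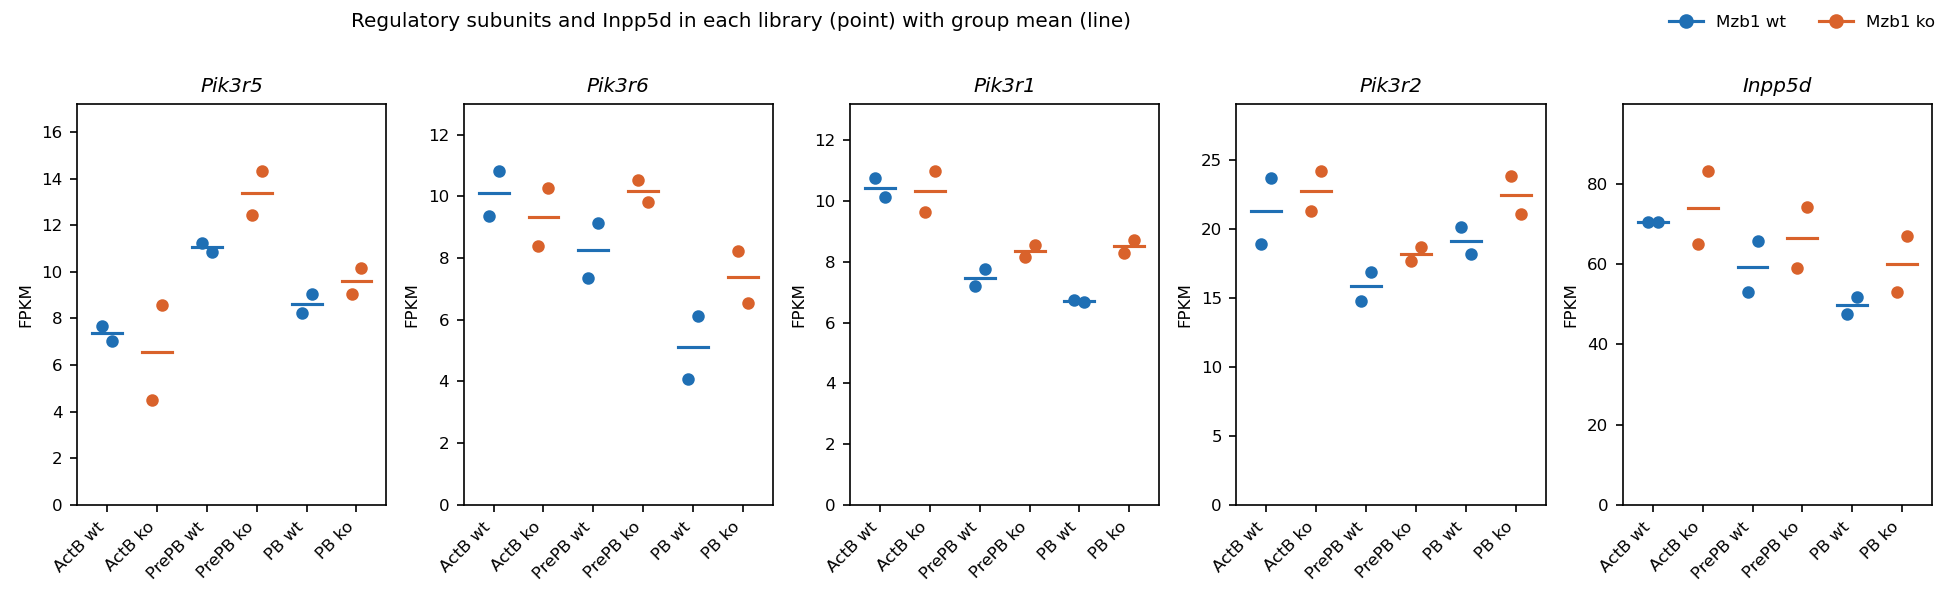
FPKM of the regulatory subunits and Inpp5d in each library (points; each axis starts at 0) with the group mean (line), wt in blue and ko in orange, n = 2 per group. Pik3r5 peaks in PrePB, where its 4 libraries lie between 10.8 and 14.3 FPKM, and Pik3r1 is highest in ActB.

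Counted over the 9 genes, 5 passed the test from ko ActB to ko PrePB, 4 higher (Pik3cg, Pik3r5, Pik3cb and Pik3ca) and Pik3r1 lower, where 54.2% of all 11069 genes tested were called, 27.1% higher and 27% lower. From ko PrePB to ko PB 2 were called, Pik3cg higher and Pik3cd lower, against 10.8% of all genes, 6.57% higher and 4.24% lower. From ko ActB to ko PB 6 were called, 4 higher (Pik3cg, Pik3cb, Pik3r5 and Pik3ca) and 2 lower (Pik3cd and Pik3r1), against 62.2% of all genes. Pik3cb is counted here but passed the filter only through the populations in which it was higher, so its call supports nothing. Without it 4 of 8 were called from ActB to PrePB, 3 higher and 1 lower, and 5 of 8 from ActB to PB, 3 higher and 2 lower. Neither share stands as a result about these genes. Groups without overlap, as described for Pik3cg and Pik3cd, are common as well: 38.1% of all genes lay wholly higher and 39.2% wholly lower in ko PrePB than in ko ActB, 29% and 25.8% in ko PB than in ko PrePB, and 40.1% and 41.1% in ko PB than in ko ActB. In the wt steps the same fit calls 53.4, 8.73 and 62% of all genes. Which of the smaller changes were called depended on scaling. With equal totals the median over all genes in ko PB against ActB moved from -0.01 to -0.27. Of the 9 genes, 2 were then called higher (Pik3cg, and Pik3cb with the limit given above) and 5 lower (Pik3cd, Pik3r1, Pik3r2, Pik3r6 and Inpp5d). Of all genes, 22.1% were then called higher and 46.1% lower, against 31.2 and 30.9%.

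**Figure D4:**
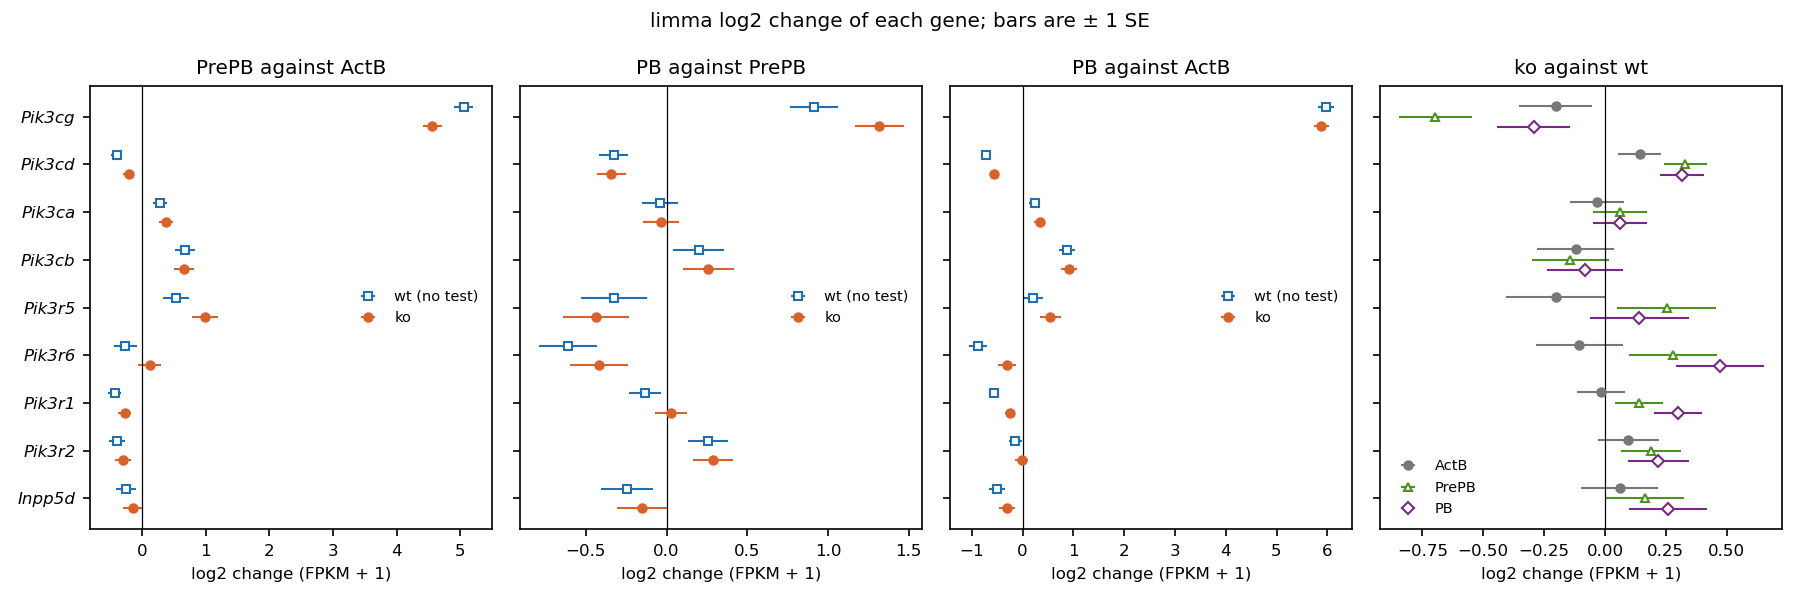
limma log2 change on the FPKM + 1 scale (points; bars ± 1 SE) of each gene for the 3 population steps in wt (open squares, not tested) and ko (filled circles), and for ko against wt in each population (right panel). The axes differ between panels; Pik3cg stands far to the right in the steps that start from ActB, and is the leftmost point of the right panel in PrePB, at -0.70.

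The comparison of ko with wt asked whether loss of Mzb1, a chaperone of the endoplasmic reticulum, went with other levels of these genes. None of the 9 was called in any population by limma, where 0.0542, 0.117 and 0.407% of all genes were called in ActB, PrePB and PB. At an unadjusted p below 0.05 there were 0, 2 and 3 of the 9, against 8.07, 15 and 16% of all genes. The wt ActB and wt PB libraries that led to the choice of Pik3cg enter the comparisons in those populations.

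Pik3cg had the widest difference. In PrePB, the ko libraries at 58.2 and 64.3 FPKM lay below the wt libraries at 91.7 and 109 FPKM, as did 21.4% of all genes. The log2 change was -0.70 (95% interval -1.03 to -0.37, limma adjusted p = 0.125). It was called only with a term for the fragment pattern (log2 change -0.87, limma adjusted p = 0.0425). In PB the libraries did not overlap either, as for 21.2% of all genes in this direction (log2 change -0.29), and in ActB they did (log2 change -0.20). The wt libraries of these 2 populations led to the choice of Pik3cg, so no p is given for them.

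Pik3cd lay higher in ko than in wt without overlap in all 3 populations, where 18.3, 25.7 and 28% of all genes did so in ActB, PrePB and PB (and 17.7% lay lower in ActB). The log2 changes were 0.14, 0.33 and 0.32 in ActB, PrePB and PB (SE 0.09 each, limma adjusted p = 0.742, 0.156 and 0.136). Because the pair moved apart, their ratio separated the genotypes more than either gene, which follows from those differences and is no separate result. The wt ActB and wt PB values of Pik3cg that enter the ratio also led to its choice. In ActB, Pik3cg per Pik3cd was 0.0136 and 0.0145 in wt against 0.00796 and 0.0127 in ko. Pik3cg per Pik3cd was 0.883 and 0.949 in wt PrePB against 0.419 and 0.474 in ko PrePB, and 2.24 and 2.13 in wt PB against 1.30 and 1.56 in ko PB. The wt mean was 1.36 times the ko mean in ActB, 2.05 times in PrePB and 1.53 times in PB. With 2 libraries against 2, an exact two-sided permutation test cannot go below p = 0.333, so these ratios are a description without a test. The summed FPKM of 8 B cell markers also differed, at 3686 and 3863 in ko PrePB against 2986 and 3067 in wt PrePB. In PB it was 2603 and 2628 in ko against 2050 and 2193 in wt. Much of this lay in Cd79a, at 1999 and 1747 against 1296 and 1422 FPKM in PrePB and 1084 and 981 against 586 and 741 FPKM in PB. In PB the genotypes overlapped for Cd79b (881 and 992 against 915 and 927 FPKM) and Ebf1 (10.3 and 7.41 against 8.52 and 8.23 FPKM). The part of these markers in the differences was not tested.

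Of the other genes, Pik3r6 and Pik3r1 had the widest differences in PB. Pik3r6 was at 8.24 and 6.53 FPKM in ko against 4.07 and 6.13 FPKM in wt (log2 change 0.47, interval 0.07 to 0.87, limma adjusted p = 0.245). Pik3r1 was at 8.28 and 8.73 against 6.74 and 6.69 FPKM (log2 change 0.30, interval 0.08 to 0.52, limma adjusted p = 0.185). In PB, fragment pattern and genotype cannot be told apart.

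The difference between the ko and wt steps was tested as an interaction, into which the wt steps enter. It was called by limma for 0 of the 8 genes other than Pik3cg at every step, with 4, 0 and 5 genes called among all 11069 (0.0361, 0 and 0.0452%); at an unadjusted p below 0.05 there were 0, 0 and 2 of the 8 (Pik3r1 and Pik3r6) and 395, 272 and 459 of all genes. For Pik3cg, which was chosen by its wt course, the difference is not tested: the log2 changes were 4.56 in ko beside 5.06 in wt from ActB to PrePB, 1.32 beside 0.91 from PrePB to PB, and 5.88 beside 5.97 over the whole course.

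Promoters of 3 genes are shown as examples of different courses of the group means in ko cells. They are Pik3cg, higher at each step, its adaptor Pik3r5, highest in PrePB, and Pik3cd, lower at each step. The fall of Pik3r5 after PrePB and that of Pik3cd from ActB to PrePB did not pass the test. Sequences are from RefSeq on build GRCm38.p6, which held 12 start sites for 8 of the 9 genes, and are the 250 bases before the start site farthest upstream, with CpG dinucleotides in capitals. The files' own build is mm9 and these coordinates are not converted to it. Pik3cg lies on the minus strand at chr12:32208660-32208909, Pik3cd on the minus strand at chr4:149698709-149698958, and Pik3r5 on the plus strand at chr11:68431875-68432124.
Pik3cg: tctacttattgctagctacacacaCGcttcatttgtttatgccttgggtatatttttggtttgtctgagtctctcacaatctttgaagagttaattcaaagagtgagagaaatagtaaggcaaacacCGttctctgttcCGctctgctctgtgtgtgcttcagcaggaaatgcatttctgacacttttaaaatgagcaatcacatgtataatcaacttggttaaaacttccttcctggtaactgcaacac
Pik3cd: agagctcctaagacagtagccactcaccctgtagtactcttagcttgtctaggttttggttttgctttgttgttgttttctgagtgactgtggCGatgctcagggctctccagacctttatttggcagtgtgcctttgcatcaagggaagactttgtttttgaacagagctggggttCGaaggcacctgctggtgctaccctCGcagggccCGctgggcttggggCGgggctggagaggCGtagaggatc
Pik3r5: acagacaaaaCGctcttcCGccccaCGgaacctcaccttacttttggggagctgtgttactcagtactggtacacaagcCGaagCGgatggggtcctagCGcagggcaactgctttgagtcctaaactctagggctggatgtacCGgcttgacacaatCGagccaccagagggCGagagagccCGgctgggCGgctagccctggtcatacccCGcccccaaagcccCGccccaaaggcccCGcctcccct
The Pik3cg window holds 3 CpG and 38.8% G and C, the Pik3cd window 6 and 53.6%, and the Pik3r5 window 14 and 61.6%, beside medians of 6 and 52.4% over all 32851 windows. The letter strings searched on both strands, known from factors of B cells and plasmablasts, were GAAAG (Blimp1 and interferon regulatory factors), ATGCAAAT (octamer factors), GAGGAA (Ets factors such as PU.1), CACGTG (E-box factors) and TGACGT (factors of the unfolded protein response). No string contains another, though GAGGAA and GAAAG can share letters. They occur in 51.5, 1.60, 23.3, 6.02 and 6.47% of all windows of this length, and in none of the 3 shown. Among the other windows of these genes, that of a downstream Pik3cg start site holds GAAAG from base -38 to -34 and GAGGAA on each strand, from -152 to -147 and from -189 to -184. A downstream Pik3cd window holds GAAAG once, Pik3r2 holds it on both strands and Inpp5d holds GAGGAA once.

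Genes next to Pik3cg in the RefSeq order of the genes tested were looked at as its surroundings. Genes that did not pass the filter on low values were skipped in this order. Hbp1 and Ccdc71l, the nearest tested genes on either side, both rose from ko ActB to ko PB. Their log2 changes were 1.49 (limma adjusted p = 3.05e-07) and 1.66 (limma adjusted p = 2.53e-07). Cog5 and Dus4l, farther on the Hbp1 side, fell by 0.49 and 0.91 on the log2 scale (limma adjusted p = 0.00141 and 0.000467). Nampt and Gdap10, farther on the other side, were not called (log2 changes 0.32 and 0.08, limma adjusted p = 0.207 and 0.847). In this comparison 31.2% of all genes were called higher and 30.9% lower, so calls among neighbours are no trait of the locus. The changes of all these neighbours were smaller than the 5.88 of Pik3cg. Pik3r5 and Pik3r6 are themselves neighbours, and had log2 changes of 0.98 and 0.12 from ko ActB to ko PrePB, a difference between genes that was not tested.

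The genes whose log2 FPKM over the 12 libraries was most like that of Pik3cg were Hist1h1c, a linker histone, Eaf2, an elongation factor partner, Atl2, an atlastin of the endoplasmic reticulum, Krtcap2, an oligosaccharyltransferase subunit, and Ckap4, an endoplasmic reticulum membrane protein. Their Pearson r was between 0.998 and 0.999; the 12 libraries come from only 3 populations, which gives a high r to any gene with a like course. By rank correlation none of these 5 was among the first 5. Ckap4 had mean levels of 8.66, 128 and 253 FPKM in ko ActB, PrePB and PB, and 12.8, 183 and 335 FPKM in wt. The likeness was taken over these same libraries, so a lower mean in ko PrePB than in wt PrePB is part of it and no separate result. The genes most like Pik3r5 were Btnl2, Ralgps2 and Itpr3 (r = 0.949, 0.941 and 0.939), of which Itpr3, a calcium release channel, also came among the first 3 by rank correlation.

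The rest of the pathway was taken from 9 lists of 173 symbols by textbook role, all listed in the files and 154 of them tested. Counts are for ko PB against ko ActB, where the median log2 change over all genes tested was -0.01 and 31.2% were called higher and 30.9% lower.

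Kinases of other classes and kinase partners included 0 called higher and 3 lower of 9 tested (median 0.07). Pik3ip1, which restrains p110 subunits, fell from 26.0 ± 3.80 to 5.75 ± 0.583 FPKM (log2 change -1.99), the class II kinase Pik3c2b from 17.6 ± 3.27 to 2.96 ± 0.0858 FPKM (log2 change -2.22), and Uvrag, a partner of the class III kinase, by 0.52 on the log2 scale (SD, n = 2 each). With equal totals 5 were called lower.

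Receptors and adaptors upstream of the kinases were called higher for 7 and lower for 11 of 19 (median -0.55). The exchange factor Vav3 rose from 1.53 ± 0.194 to 23.9 ± 2.36 FPKM (log2 change 3.30) while its relative Vav2 fell from 56.0 ± 4.69 to 13.1 ± 0.540 FPKM (log2 change -2.01). The Src-family kinase Lyn fell from 122 ± 1.53 to 39.3 ± 4.19 FPKM (log2 change -1.62), and the ubiquitin ligase Cblb by 2.30 on the log2 scale (log2 change -2.30).

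G protein subunits, Rgs proteins and Ras proteins were called higher for 6 and lower for 8 of 23 (median -0.10). Only the βγ subunits and Ras among them are inputs of the class IB enzyme as given above. Gnaq, a Gq subunit, rose from 4.32 ± 0.166 to 19.9 ± 0.400 FPKM (log2 change 1.97), and Gng10, a γ subunit, fell from 124 ± 8.62 to 40.0 ± 1.99 FPKM (log2 change -1.61). Rgs19 and Rgs18, which speed the switching off of G proteins, fell (log2 changes -1.28 and -2.09). Rgs18 is counted among the 8 but passed the filter on low values only through ActB, so its change is a description. Of chemoattractant and sphingosine receptors, whose coupling to G proteins was not tested, 4 were called higher and 6 lower of 11 (median -0.72). Ccr7 and Cxcr5, the receptors that guide B cells in lymphoid tissue, fell by log2 changes of -4.37 and -2.10. Ccr10, known from plasma cells of mucosal tissues, rose from 1.29 ± 0.109 to 19.4 ± 5.62 FPKM (log2 change 3.13), and S1pr2 rose from 1.33 ± 0.151 to 6.95 ± 0.258 FPKM (log2 change 1.77).

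Phosphoinositide phosphatases other than Inpp5d were called higher for 7 and lower for 5 of 18 (median 0.19), and lower for 3 with a filter of 5 FPKM. Inpp4b, which acts on a product of SHIP1, rose from 3.26 ± 0.0208 to 8.01 ± 0.559 FPKM (log2 change 1.08). Inpp5a, a phosphatase of soluble inositol phosphates, rose (log2 change 2.60), and Inpp5f fell (log2 change -1.45). Of the inhibitory receptors and adaptors known to recruit SHIP1 or other phosphatases, 2 were called higher and 8 lower of 11 (median -1.44). Which of them act through SHIP1 was not tested. Cd22 fell from 298 ± 53.0 to 3.97 ± 2.00 FPKM (log2 change -5.96), Cd72 from 207 ± 17.1 to 14.8 ± 0.782 FPKM (log2 change -3.72), and Ceacam1 and Pirb by log2 changes of -4.50 and -4.30. Cd22 is also a B cell marker, and 7 of 8 B cell markers were called lower.

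Kinases and adaptors with PIP3-binding domains or that act with them were called higher for 3 and lower for 16 of 22 (median -0.60). Tec, a kinase related to Btk, rose from 12.9 and 15.1 FPKM to 42.3 and 50.6 FPKM (log2 change 1.66). Swap70, the Rac exchange factor Prex1, which responds to PIP3 and βγ subunits, and the adaptor Grap2 fell (log2 changes -1.12, -1.60 and -1.75).

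Akt phosphatases and mTOR complexes were called higher for 11 and lower for 5 of 22 (median 0.23), but higher for only 4 with equal totals and for 7 without ko PB replicate 1, and lower for 3 without that library or without ko ActB replicate 2. The Akt phosphatase Phlpp1 fell from 11.8 ± 0.235 to 2.06 ± 0.00256 FPKM (log2 change -2.06) while its relative Phlpp2 rose (log2 change 1.25), as did the phosphatase subunit Ppp2cb and the mTOR activator Rheb (log2 changes 1.24 and 0.66). FoxO factors and genes known as their targets were called higher for 10 and lower for 9 of 22 (median 0.28). Ccr7, also in this list, fell as given above, and Pink1, a kinase of mitochondrial quality control, rose (log2 change 1.73). All the changes named for these lists, other than that of Rgs18, passed the limma test at an adjusted p below 0.05.

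**Figure D5:**
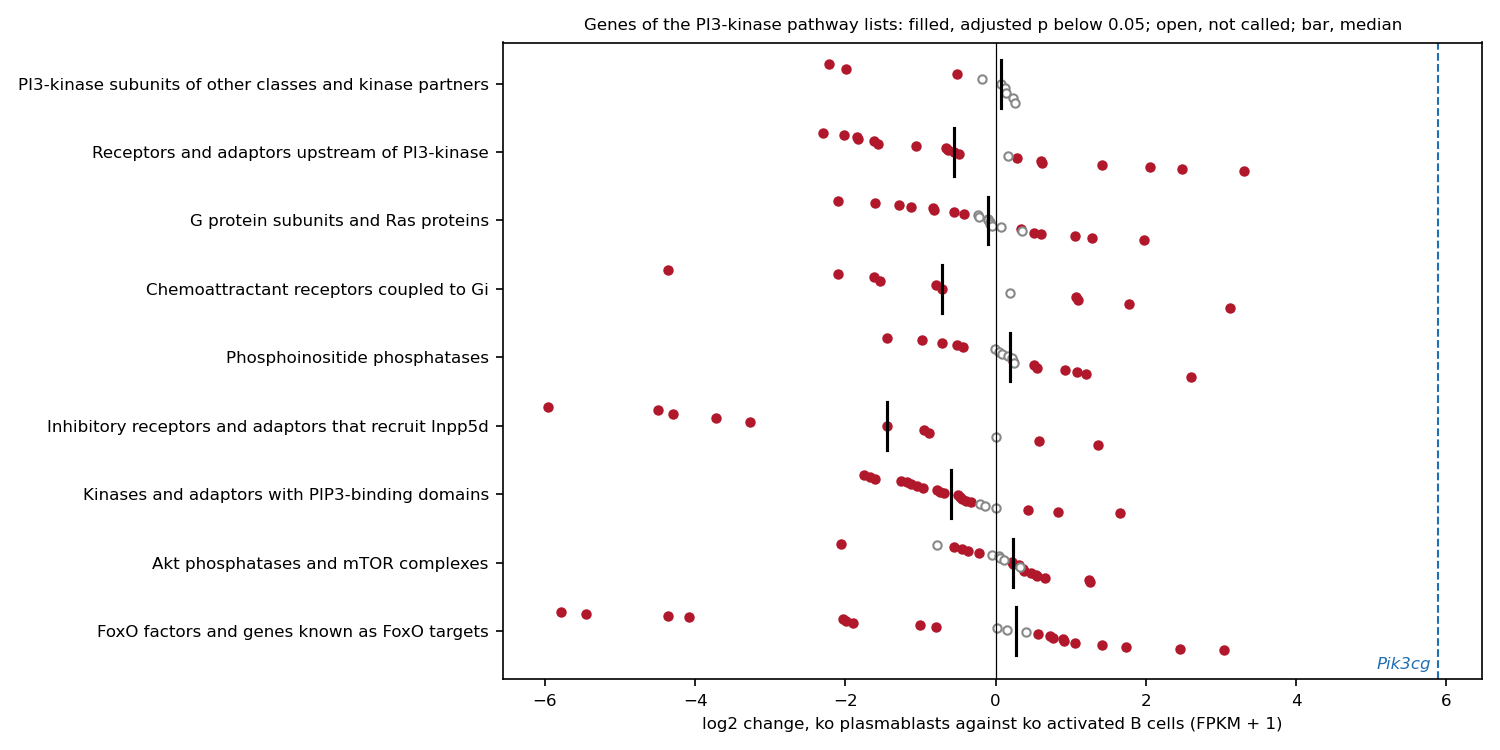
limma log2 change in ko PB against ko ActB (FPKM + 1) for each tested gene of the 9 pathway lists; filled points were called, open points were not, bars mark the list median and the dashed line Pik3cg. Every listed gene lies to the left of the Pik3cg line at 5.88, and the list with inhibitory receptors has the lowest median, -1.44.

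Between genotypes, 4 of the listed genes were called, all in PB and all higher in ko, where 0.407% of all genes were called, 29 higher and 16 lower. Of the 8 B cell markers 2 were called higher in ko PB: Blk, which is 1 of these 4, and the B cell transcription factor Pax5, at 7.24 and 5.92 FPKM in ko against 2.02 and 2.76 FPKM in wt (log2 change 1.17, limma adjusted p = 0.0031). The part of B cell markers in these differences was not tested. Cxcr5 was at 18.0 and 14.2 FPKM in ko PB against 8.12 and 7.41 FPKM in wt PB (log2 change 0.95, limma adjusted p = 0.00539), and Cd72 at 15.3 and 14.2 against 7.89 and 6.88 FPKM (log2 change 0.91, limma adjusted p = 0.0148). The Src-family kinase Blk was at 119.9 and 111 against 82.0 and 73.6 FPKM (log2 change 0.56, limma adjusted p = 0.0419). Rgs16, an off-switch of Gi and Gq proteins, was at 2.97 and 2.62 against 1.08 and 1.10 FPKM (log2 change 0.86, limma adjusted p = 0.0415). The libraries of all 4 genes did not overlap, and in PB all ko libraries and no wt library have fragment pattern B. Over all genes, the 45 calls in PB fell to 4 with a term for the fragment pattern and to 8 with the compared groups alone. Whether these genes kept their calls under other settings is not reported here.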

How the data were processed

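Polyadenylated RNA of 12 libraries was sequenced after a stranded TruSeq preparation, per the labels' protocols. The authors deposited FPKM per gene symbol, 1 file per library; the submitters' processing notes list Cuffnorm 2.2.1, Cuffdiff, Cufflinks 2.2.1, the aligner TopHat2 2.0.14, bcl2fastq 2.17.1.14 (and 0.3.1) and build mm9. Annotation, scaling and filters are not given in the sources used here, and without counts no counting interval was computed.

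The 11069 of 24325 genes that reached 1 FPKM in 2 or more libraries were analysed as log2(FPKM + 1) in limma 3.58.1 (R 4.3.3, limma-trend) with 1 coefficient for each of the 6 groups, 6 residual and 4.49 prior degrees of freedom. Tests were two-sided, with Benjamini-Hochberg adjustment over all genes of a comparison and calls at an adjusted p below 0.05. The model was tested on simulated data. Promoter letters came from RefSeq (GRCm38.p6). Figures used matplotlib 3.10.9 in Python 3.11.15.

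Members and lists were chosen with earlier results of these data known. Named were all 9 members, up to 4 called genes per list by lowest p in ko PB against ActB (the 2 lowest where fewer than 2 were called), any listed gene called between genotypes, the 5 genes most like Pik3cg and 3 most like Pik3r5 by Pearson r, and Xist, Mzb1, Prdm1 and Sdc1. A few listed genes that this rule names are not reported here. The neighbours of Pik3cg and the marker genes were named after their values were seen. Other settings were no filter or 5 FPKM, a pseudocount of 0.1, quantile normalization, equal totals over genes other than small RNAs, compared groups alone, a replicate block, a fragment pattern term, pattern A alone, and leaving out each library or wt replicate 1 throughout. The pattern was read from genes below 0.5 FPKM by the share at 1 common ratio (log2 tolerance 0.002): 4.81 to 20.1% within a pattern and 1.38 to 2.75% across.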

Additional observations from a re-analysis of the deposited data

How the results depend on the processing

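Of the results of single members in the tested comparisons, 676 of 723 under other settings kept their side of the threshold, 33 lost a call, 14 gained one and none reversed. Counts of members called higher include Pik3cb, which passed the filter only where it was higher. In ko PrePB against ActB, 2 members were called lower with quantile normalization, 3 with equal totals and 0 with the compared groups alone; with pattern A libraries alone 2 were higher and 0 lower, and without 1 library between 3 and 4 were higher and 0 to 2 lower. In ko PB against PrePB, 0 members were lower with the compared groups alone, without wt replicate 1 or without any 1 library, and 2 with the fragment pattern term. In ko PB against ActB, equal totals gave 2 higher and 5 lower, the compared groups alone and the fit without wt replicate 1 each gave 1 lower, and leaving out 1 library gave 2 to 3 higher and 1 to 3 lower. The term for the pattern called 1 member lower in ko against wt PrePB, Pik3cg at -0.87. The wt change of Pik3cg was 5.56 (pseudocount 0.1) and 4.87 (equal totals) from ActB to PrePB, and 6.48 (pseudocount 0.1), 5.76 (quantile) and 5.62 (equal totals) from ActB to PB. The causes were not tested.

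Counts over all genes moved by over 1.5 times in ko PB against PrePB (1196; 489 with the compared groups alone, 724 without wt replicate 1, 377 to 808 without 1 library). In ko against wt they moved in ActB (6; 10 with no filter, 3 with the compared groups alone, 14 without wt replicate 1), in PrePB (13; 20 with quantile normalization, 24 with equal totals, 8 with the compared groups alone, 7 to 8 without 1 library) and in PB (45; 27 with no filter, 72 with equal totals, 8 with the compared groups alone, 4 with the pattern term, 9 without wt replicate 1, 10 to 41 without 1 library). Of the list counts, 228 of 234 stayed within 1.5 times.

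Same-numbered wt and ko libraries did not deviate together (correlations of -0.11, -0.08 and -0.05), and within a genotype they ranged from 0.05 to 0.32, over 0.1 in 4 of 6 pairs. Xist ties the wt replicate 1 libraries to each other. At values near 0 it was also higher in ko replicate 1 (0.161, 0.233 and 0.389 FPKM in ActB, PrePB and PB) than in ko replicate 2 (0.0195, 0.0151 and 0.0291 FPKM). The labels name no shared source and not every pair deviated together. The numbers were therefore not taken to pair libraries, which leaves a shared source possible in both genotypes. With the replicate block, 0 members were called between genotypes (Pik3cg in PrePB, adjusted p = 0.0637), and the calls of ko PB against ActB went from 6 to 7, with Inpp5d added. Pattern A alone could not be run where ko PB enters, and the 5 FPKM filter removed Pik3cb. With 2 libraries a group and unknown depth, small changes of low genes cannot be resolved.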
